A study of Homo sapiens with 24 samples.

Results

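MOLT4 is a human cell line grown from a T-cell acute lymphoblastic leukaemia. It was sampled after 8 h and after 4 h in SK-3-91, and the 2 treated groups are set directly against each other here, across all genes and without a solvent control. The comparison takes 8 of the series' 24 libraries, 4 of SK-3-91 at 8 h and 4 of SK-3-91 at 4 h, chosen by the treatment and time in their labels and not by any measured value. The remaining groups are SK-3-91 at 1 h and the solvent DMSO at 1, 4 and 8 h, also with 4 libraries each, and DMSO enters only where it is named. All groups are cells of the same line grown in RPMI1640 with foetal bovine serum, so the results describe that line alone, and no dose of SK-3-91 is given in the sources used here. The labels do not say whether the 4 replicates of a group came from separate cultures, and the p-values below therefore reflect the spread of these libraries alone, which could be technical.

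The labels call SK-3-91 a pan-kinase degrader. Molecules of that kind join a kinase-binding part to a part that recruits a ubiquitin ligase, so that bound kinases are tagged for the proteasome. Kinases relay signals from surface receptors, drive cells through the cycle and, in the form of the transcriptional CDKs, release RNA polymerase II into productive elongation. A comparison of a later with an earlier hour of treatment shows which transcripts were still changing in treated cells, and in which direction.

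Counted reads were fewer at the later time. The 8 h libraries held 8.90, 8.96, 6.86 and 8.48 megareads (M) assigned to genes, against 10.82, 10.78, 10.64 and 10.87 M in the 4 h libraries. The groups did not overlap, and the 8 h mean of 8.3 ± 0.982 M was 77.0% of the 4 h mean of 10.78 ± 0.0975 M (SD, n = 4 each; exact two-sided permutation p = 0.0286, the smallest this design allows). Whether the cells were fewer, held less RNA or were sequenced less cannot be told apart from these totals, so all gene values below are shares of a library, in CPM (read counts scaled to a common library total by TMM factors), and a gene that rose did so relative to the other genes. Thinning every library to the depth of the shallowest left 3325 genes called higher and 3300 lower. Of 18 markers of T-cell leukaemia, 16 were in the table, among them CD7, CD3D, CD1E, DNTT and NOTCH1. TAL1 and CD99 were not analysed here. Of the B-cell markers, 4 of 11 were measured, as were 1 of 11 myeloid, 1 of 8 epithelial and 1 of 11 stromal or endothelial markers and 0 of 9 erythroid markers.

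Most genes differed between the 2 times, with about as many higher as lower at 8 h. Of 9822 genes in the table, 107 were too scarce to test. Of the 9715 tested, edgeR's quasi-likelihood test called 3451 higher at 8 h (35.5%) and 3420 lower (35.2%) at a Benjamini-Hochberg adjusted p under 0.05, together 70.7%. Most changes were small: 239 genes rose at least 2-fold (2.46%) and 454 fell at least 2-fold (4.67%). These became 126 and 700 genes without scaling factors (library totals alone). With limma-trend, which ran on the deposited log2 values and not on the counts, they became 41 and 130. A test against a minimum change of 1.5-fold called 725 higher (7.46%) and 896 lower (9.22%). The quartiles of the log2 fold change were -0.38 and 0.37 and its full range -2.36 to 2.92, with a median standard error of 0.0774. The 4 libraries of 8 h did not overlap the 4 of 4 h in 62.2% of genes. Without scaling factors the median log2 fold change of all genes was -0.13 in place of -0.0045 and the calls became 2680 higher (27.6%) and 4207 lower (43.3%), so that the share of calls that were higher was 38.91% in place of 50.23%. Values below are relative to the TMM scale, and a list is given without scaling as well where its median or the balance of its calls turns or comes near to turning.

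**Figure D1:**
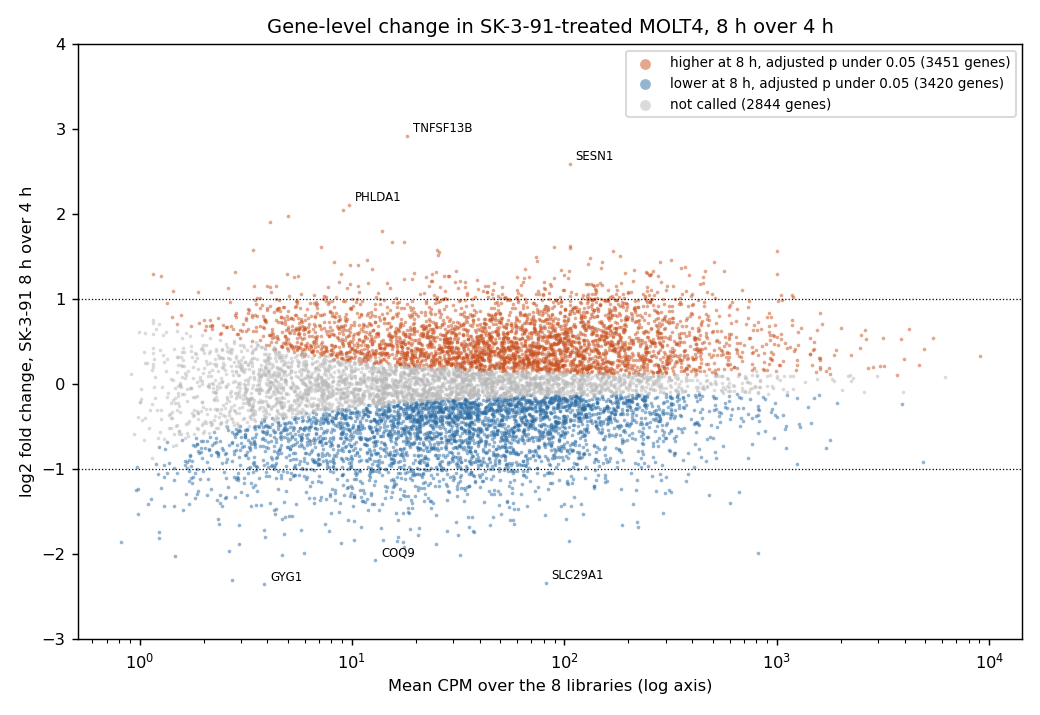
Each point is a gene, with its mean CPM over the 8 libraries on a log axis and its log2 fold change, SK-3-91 8 h over 4 h, on the vertical axis; colours mark the 3451 genes called higher and the 3420 called lower, dotted lines mark 2-fold, and the 3 largest named changes in each direction carry their symbols. The increases and the decreases spread over the whole range of abundance.

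The largest increases included a cytokine gene and genes that p53 is known to induce. In the ranking by log2 fold change, TNFSF13B (2.92) and SESN1 (2.59) came first. PHLDA1 (2.11) and MTFR2 (2.04), described further on, ranked above TP53INP1 (1.97) and PHLDA3 (1.90). TNFSF13B encodes BAFF, a TNF-family cytokine that keeps B cells alive. It stood at 31.5, 27.6, 29.6 and 39.7 CPM in the 8 h libraries, against 5.7, 2.75, 4.06 and 4.48 CPM in the 4 h libraries. Every 8 h library lay above every 4 h library, and the mean was 7.55-fold higher (log2 fold change 2.92 ± 0.14, adjusted p = 6.4e-16; here and below, ± after a log2 fold change is its standard error and the adjusted p is that of edgeR). SESN1 encodes a sestrin, a stress protein that restrains mTORC1 and is induced by p53 and FOXO factors. It had 187, 171, 170 and 200 CPM in the 8 h libraries, against 28.8, 27.9, 29.8 and 34.1 CPM in the 4 h libraries. Both sets of libraries were tight and far apart (6.03-fold higher; log2 fold change 2.59 ± 0.07, adjusted p = 5.1e-21). TP53INP1, a p53-induced gene that promotes cell death, had 8.7, 8.01, 5.85 and 9.35 CPM in the 8 h libraries, against 2.32, 1.6, 2.62 and 1.67 CPM in the 4 h libraries. The lowest 8 h library was still above the highest 4 h library (log2 fold change 1.97 ± 0.19, adjusted p = 6.1e-10). PHLDA3, a p53-induced inhibitor of AKT, averaged 6.49 ± 1.09 CPM at 8 h and 1.73 ± 0.314 CPM at 4 h (SD, n = 4 each; 3.74-fold higher, adjusted p = 2.1e-09), and its 8 h replicate 1 lay above the other 8 h libraries.

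The other large increases covered signalling, metabolism and transcription. PHLDA1, a pleckstrin-homology-like gene that ERK signalling induces, had 17.6, 13, 12.5 and 20 CPM in the 8 h libraries, against 2.85, 2.49, 4.51 and 4.83 CPM in the 4 h libraries. The lowest 8 h library stood well above the highest 4 h library (log2 fold change 2.11 ± 0.18, adjusted p = 2.9e-11). MXD1 encodes a partner of MAX that competes with MYC for DNA. Its values were 140, 138, 104 and 155 CPM in the 8 h libraries, against 42, 43.7, 44.6 and 46.3 CPM in the 4 h libraries, so all 8 h libraries were above all 4 h libraries (3.05-fold higher; log2 fold change 1.61 ± 0.08, adjusted p = 1.3e-15). RPRD1A, which binds the C-terminal tail of RNA polymerase II, had 169, 157, 143 and 172 CPM in the 8 h libraries, against 51.4, 50.5, 54.3 and 55.6 CPM in the 4 h libraries. That is a 3.03-fold rise with no overlap (adjusted p = 1.3e-17). MTFR2, a regulator of mitochondrial fission, averaged 14.6 ± 2.6 CPM at 8 h and 3.56 ± 0.318 CPM at 4 h (4.12-fold higher). PYGM, the muscle form of glycogen phosphorylase, averaged 10.8 ± 1.74 CPM at 8 h and 3.53 ± 0.575 CPM at 4 h (3.05-fold higher), with 4 h replicate 4 above the other 4 h libraries. RASL11A, a RAS-like GTPase, rose 3.48-fold, FBXL2, the substrate receptor of an SCF ubiquitin ligase, 3.18-fold, and GNRH1, the precursor of gonadotropin-releasing hormone, 3.18-fold. PRC1-AS1, with a log2 fold change of 1.62, was passed over in this ranking because 22.57% of its exon bases lie opposite exons of another gene and the strand setting of the counting is not known.

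The largest decreases included genes of energy metabolism, nucleoside uptake and DNA replication. GYG1 encodes glycogenin, the primer of glycogen synthesis. It had 1.18, 1.28, 1.39 and 1.21 CPM in the 8 h libraries, against 5.61, 7.02, 5.5 and 7.81 CPM in the 4 h libraries. All 8 h libraries were low and close together, 5.12-fold below 4 h (log2 fold change -2.36 ± 0.22, adjusted p = 2.3e-10). SLC29A1 encodes ENT1, the main equilibrative carrier of nucleosides into cells. It stood at 23.4, 25.7, 33.4 and 26.2 CPM in the 8 h libraries, against 130, 137, 152 and 125 CPM in the 4 h libraries. The groups were far apart, 5.05-fold lower at 8 h (log2 fold change -2.33 ± 0.08, adjusted p = 1.5e-18). LDHA, the lactate dehydrogenase subunit that makes lactate from pyruvate, had 306, 323, 358 and 326 CPM in the 8 h libraries, against 1297, 1334, 1332 and 1265 CPM in the 4 h libraries. Each 8 h library was far below each 4 h library, and the mean was 3.98-fold lower (log2 fold change -1.99 ± 0.05, adjusted p = 5.1e-21).

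Elsewhere in the same ranking stood RFC2, a subunit of the clamp loader that places PCNA on DNA. It had 9.76, 10.7, 12 and 10.2 CPM in the 8 h libraries, against 36.7, 41.6, 39 and 38.7 CPM in the 4 h libraries. No library of 8 h came near those of 4 h (3.68-fold lower; log2 fold change -1.88 ± 0.09, adjusted p = 3.4e-16). COQ9, needed for coenzyme Q synthesis, averaged 4.96 ± 0.503 CPM at 8 h and 20.9 ± 1.96 CPM at 4 h (4.2-fold lower), with 8 h replicate 4 above the other 8 h libraries. IKBKE, a kinase of innate immune signalling, averaged 2.35 ± 0.87 CPM at 8 h and 9.49 ± 0.957 CPM at 4 h (3.97-fold lower), and NMI, which binds MYC-family and STAT proteins, 7.07 ± 1.77 CPM at 8 h and 25.6 ± 2.71 CPM at 4 h (3.59-fold lower). NPTX2, a pentraxin, fell 4.04-fold, C7orf50 3.78-fold, TCEAL9, a gene of the elongation factor A-like family, 3.65-fold, and TPRKB, a subunit of the KEOPS complex that modifies tRNA, 3.62-fold. None of these genes shared 20% or more of its 32-base words with other genes or of its exon length with genes of the opposite strand, which the choice required.

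**Figure D2:**
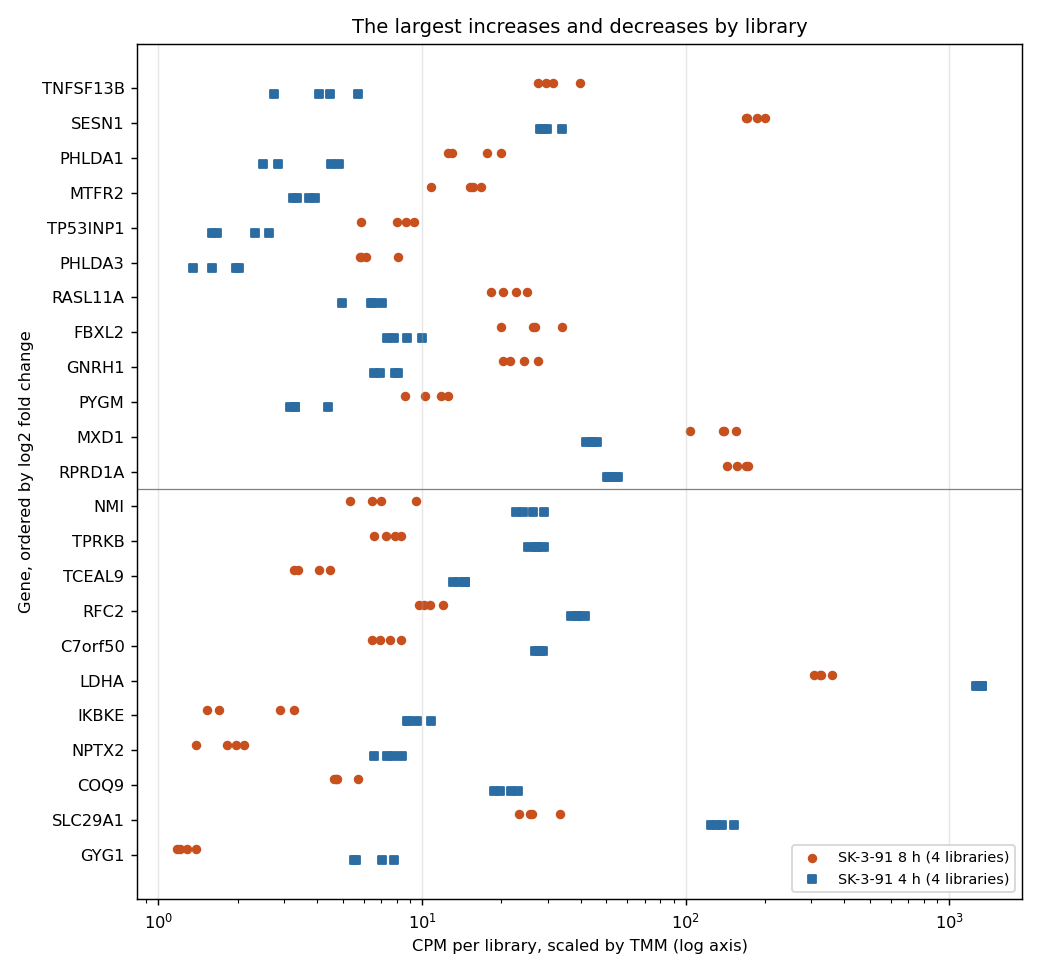
CPM of the largest increases (upper block) and largest decreases (lower block) described in the text, in each library on a log axis, circles for the 4 SK-3-91 8 h libraries and squares for the 4 SK-3-91 4 h libraries. In every gene the circles and squares do not overlap, which the choice of these genes required.

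Of the genes that p53 induces, more rose than fell. Numbers in brackets after a gene symbol are its log2 fold change, 8 h over 4 h. In the list of p53 targets, 16 of 28 tested members rose (57.1%), 5 fell (17.9%) and 7 were not called, with a median log2 fold change of 0.57, beside 35.5% of all tested genes higher and 35.2% lower. After the sestrin SESN1, TP53INP1 and PHLDA3, the largest rises were in BTG2, an antiproliferative gene that is also an immediate-early gene (17.3 ± 1.92 CPM at 8 h and 6.26 ± 1.53 CPM at 4 h; log2 fold change 1.46, adjusted p = 3.1e-10), ZMAT3 (1.41), the growth-arrest gene GADD45A (1.30) and the apoptosis inhibitor TRIAP1 (1.20). The p53 ubiquitin ligase MDM2 rose by 0.58, the phosphatase PPM1D by 0.91 and the death receptor TNFRSF10B by 0.62. The members that fell were CDIP1 (-1.13), the nucleotide-excision repair gene DDB2 (-0.96), RPS27L (-0.44), FDXR (-0.41) and the death effector BAX (-0.28). In DMSO between the same hours 5 members rose and 3 fell, with a median of 0.02, beside 15.9% of all genes higher and 14.8% lower there.

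Among the genes of NF-kB and TNF signalling, several survival genes rose. Among NF-kB targets, 10 of 15 tested members rose (66.7%), 3 fell (20%) and 2 were not called, with a median log2 fold change of 0.37. The shares over all tested genes were 35.5% higher and 35.2% lower. In the TNF and death receptor family, 13 of 27 tested members rose (48.1%), 7 fell (25.9%) and 7 were not called, with a median log2 fold change of 0.17 (0.05 without scaling, where 10 rose and 9 fell). BIRC2 encodes cIAP1, an inhibitor of apoptosis that acts at TNF receptors, and had 130, 126, 116 and 132 CPM in the 8 h libraries, against 49.5, 48.5, 54.4 and 60.1 CPM in the 4 h libraries. All 8 h libraries were above all 4 h libraries (log2 fold change 1.25 ± 0.07, adjusted p = 3.6e-15). BIRC3 (0.84), the precursor gene of p50 NFKB1 (0.84), TRAF2 (0.43) and CASP8 (0.60) rose as well. CD83, a surface marker of activated lymphocytes, fell (3.74 ± 0.501 CPM at 8 h and 9.54 ± 0.668 CPM at 4 h; log2 fold change -1.34), as did NFKB2 (-0.62), the executioner caspase gene CASP6 (-1.19) and the apoptosome genes APAF1 (-0.58) and CASP9 (-0.61). NFKBIA, the inhibitor that NF-kB induces, was at -0.11 (adjusted p = 0.30).

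MCL1 encodes a short-lived member of the BCL-2 family that blocks apoptosis. It had 371, 366, 326 and 368 CPM in the 8 h libraries, against 139, 137, 153 and 160 CPM in the 4 h libraries. The lowest of the 8 h libraries, replicate 3, was still above every 4 h library (2.43-fold higher; log2 fold change 1.28 ± 0.06, adjusted p = 1.2e-16). BCL2 itself had 12.2, 14.6, 11.4 and 19.9 CPM in the 8 h libraries, against 14.3, 11.3, 14.1 and 13.9 CPM in the 4 h libraries. The groups overlapped and the difference was within the spread of the libraries (log2 fold change 0.13 ± 0.13, adjusted p = 0.39). In the BCL-2 family as a whole, 4 of 14 tested members rose (28.6%), 4 fell (28.6%) and 6 were not called. These shares stand beside 35.5% of all tested genes higher and 35.2% lower. The family's median log2 fold change was 0.01, which is -0.11 without scaling, where 2 rose and 6 fell. Among its called members BCL2L11, which encodes the death-promoting protein BIM, rose by 0.24, the mitophagy receptor gene BNIP3L had -0.39 and the death-promoting BAD -0.79. BAD is uncertain, with 23.6% of its exon length opposite exons of another gene, past the 20% limit used here.

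Receptor and kinase outputs were mixed, and each of their lists stands beside 35.5% of all tested genes higher and 35.2% lower. Of the immediate-early genes, 6 of 11 tested members rose (54.5%), 0 fell (0%) and 5 were not called, with a median log2 fold change of 0.44. KLF6, a zinc-finger factor of that class, had 476, 461, 447 and 481 CPM in the 8 h libraries, against 167, 157, 172 and 184 CPM in the 4 h libraries (log2 fold change 1.46 ± 0.05, adjusted p = 2.7e-18). It was high in all 8 h libraries, and BTG2 and the mRNA-decay gene ZFP36L1 (0.77) rose too, whereas EGR1 was not called (0.05, adjusted p = 0.79). Of the ERK feedback and output genes, 5 of 13 tested members rose (38.5%), 4 fell (30.8%) and 4 were not called, with a median log2 fold change of 0.10 and of -0.02 without scaling, where 5 rose and 4 fell. There the phosphatase genes DUSP16 (-0.64) and DUSP7 (-0.43) and the RAS activator RASGRP1 (-0.44) fell, while RASA2 (0.77), a RAS GTPase activator, and SPRED1 (0.52) and SPRED2 (0.50), which restrain RAF, rose. Of the FOXO-induced genes, 8 of 20 tested members rose (40%), 7 fell (35%) and 5 were not called, with a median log2 fold change of 0.12 (0.00 without scaling, where 6 rose and 8 fell). ARRDC4, an arrestin-domain gene, rose by 1.23 and RICTOR, the defining subunit of mTORC2, by 1.06, while FBXO32 (-0.87) fell. Of the JAK-STAT targets, 8 of 17 tested members rose (47.1%), 2 fell (11.8%) and 7 were not called, with a median log2 fold change of 0.13 (0.01 without scaling, where 7 rose and 3 fell). These included the cytokine-signalling suppressors SOCS4 (1.16), SOCS7 (0.82), SOCS6 (0.77) and SOCS1 (0.71) among the rises.

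Protein kinases of the kind that pan-kinase degraders bind did not move as a group. Of these kinases, 28 of 68 tested members rose (41.2%), 24 fell (35.3%) and 16 were not called, with a median log2 fold change of -0.02 (-0.14 without scaling, where 24 rose and 31 fell), beside shares of 35.5% and 35.2% over all genes. LCK, the kinase that starts T-cell receptor signalling, had 185, 187, 187 and 175 CPM in the 8 h libraries, against 444, 455, 403 and 437 CPM in the 4 h libraries. The 8 h values of LCK were well below those of 4 h (log2 fold change -1.24 ± 0.05, adjusted p = 3.3e-17). AURKA, the mitotic kinase Aurora A, had 57.5, 55, 62.5 and 51 CPM in the 8 h libraries, against 27.7, 23.9, 27.7 and 26.6 CPM in the 4 h libraries and rose without overlap (log2 fold change 1.09 ± 0.07, adjusted p = 4.4e-13). AURKB, the Aurora kinase of the later stages of mitosis, fell by 1.06 on the log2 scale. These are transcript shares, and they say nothing of how much kinase protein the cells held. Of the genes of CRBN and the cullin ligases, through which degraders of this type can act, 17 of 40 tested members rose (42.5%), 13 fell (32.5%) and 10 were not called, with a median log2 fold change of -0.01 (-0.13 without scaling, where 15 rose and 19 fell). CRBN was not called (0.15, adjusted p = 0.11), and neither was DDB1 (-0.04). DCAF7 (-1.13), CUL4B (-0.85) and the neddylation enzyme subunit NAE1 (-0.84) fell, and CUL1 (0.69) and CUL3 (0.56) rose.

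The list of cyclin-dependent kinases and cyclins, which also holds CDK inhibitors and other regulators, had more rises than falls. Some cyclins, such as CCNA2 and CCNE1, are counted in the mitosis and replication lists and not here. In that list, 23 of 37 tested members rose (62.2%), 11 fell (29.7%) and 3 were not called, with a median log2 fold change of 0.46. The shares over all tested genes were 35.5% higher and 35.2% lower. CDK9, the kinase of P-TEFb that releases paused RNA polymerase II, had 68.6, 55.7, 62.4 and 62.5 CPM in the 8 h libraries, against 38.6, 41.8, 44.7 and 44.6 CPM in the 4 h libraries. It was higher in all 8 h libraries (log2 fold change 0.55 ± 0.07, adjusted p = 8.1e-08), and its cyclins CCNT1 (0.73) and CCNT2 (0.67) and the TFIIH kinase CDK7 (0.82) rose as well. CDK12, which phosphorylates the polymerase on long genes, had 98.2, 102, 98.7 and 109 CPM in the 8 h libraries, against 133, 126, 144 and 130 CPM in the 4 h libraries. It fell (log2 fold change -0.39 ± 0.06, adjusted p = 1.1e-06), while CDK13 rose by 0.33 and CCNK, the cyclin of both, by 1.32. CCNK averaged 659 ± 30 CPM at 8 h and 263 ± 27.6 CPM at 4 h, with 4 h replicate 3 above the other 4 h libraries, and is uncertain for sequence or exon bases it shares with other genes. Among cell-cycle members, CCND3, the D-type cyclin of T cells, rose (444 ± 24.2 CPM at 8 h and 355 ± 11.4 CPM at 4 h; log2 fold change 0.32 ± 0.05, adjusted p = 2.2e-06). CCND3 also rose in DMSO between the same hours, by 0.38 (edgeR adjusted p = 8.1e-11, fit of all libraries). Its change with the compound minus that in DMSO was -0.02 and was not called (edgeR adjusted p = 0.72, same fit). With the compound, the CDK4 and CDK6 inhibitor gene CDKN2D rose by 1.01. CDK4 itself fell by 1.25, also an uncertain value, with 43.21% of its exon bases opposite such exons.

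In the transcription machinery, 32 of 74 tested members rose (43.2%), 24 fell (32.4%) and 18 were not called, with a median log2 fold change of 0.12 and of -0.00 without scaling, where 23 rose and 29 fell. On the TMM scale 35.5% of all tested genes were higher and 35.2% lower. ELL, an elongation factor, rose 2.52-fold, and MED30 (0.93), MED15 (0.89) and the pausing factor SUPT5H (0.71) rose as well. TAF11 of TFIID fell 2.5-fold, along with MED16 (-1.14), POLR2H (-1.11) and GTF2A2 (-1.04). Of the splicing factors, 32 of 71 tested members rose (45.1%), 25 fell (35.2%) and 14 were not called, with a median log2 fold change of 0.10 (-0.03 without scaling, where 27 rose and 32 fell). SRSF4, a serine and arginine rich splicing factor, rose (347 ± 20.6 CPM at 8 h and 141 ± 7.69 CPM at 4 h; log2 fold change 1.30), while HNRNPD, an RNA-binding protein of the spliceosome and of mRNA decay, fell (391 ± 19.3 CPM at 8 h and 940 ± 41.2 CPM at 4 h; -1.26), as did SF3B3 (-1.09) and EFTUD2 (-0.96). Of the ZNF zinc-finger genes, 128 of 334 tested members rose (38.3%), 54 fell (16.2%) and 152 were not called, with a median log2 fold change of 0.19 (0.07 without scaling, where 94 rose and 72 fell). ZNF12 (1.20) and ZNF644 (1.10) were among the largest rises and ZNF672 (2.46 ± 0.513 CPM at 8 h and 7.16 ± 0.836 CPM at 4 h; -1.56) among the largest falls. ZNF585B (-1.43) and ZNF839 (-1.23) fell too but are uncertain, ZNF585B for shared sequence and ZNF839 for exons on the opposite strand. Few histone genes were measured. In that list, 3 of 6 tested members rose (50%), 2 fell (33.3%) and 1 was not called, with a median log2 fold change of 0.04 (-0.08 without scaling, where 0 rose and 2 fell), and 1 of the members that fell is the antisense transcript H1FX-AS1. The replication-independent variant H2AZ1 fell (163 ± 12.7 CPM at 8 h and 297 ± 14 CPM at 4 h; log2 fold change -0.87 ± 0.06, adjusted p = 2.1e-13).

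MYC, which drives growth, ribosome production and entry into the cycle, was lower after the longer exposure. It had 96.9, 102, 115 and 116 CPM in the 8 h libraries, against 318, 349, 333 and 326 CPM in the 4 h libraries. Every 8 h library lay far below every 4 h library, 3.09-fold lower (log2 fold change -1.63 ± 0.06, adjusted p = 2.3e-18), while the MYC competitor MXD1 rose 3.05-fold as described above. MYB, another factor that T-cell leukaemia depends on, had 191, 197, 203 and 215 CPM in the 8 h libraries, against 199, 197, 211 and 209 CPM in the 4 h libraries. The groups overlapped and no difference was found (log2 fold change -0.02 ± 0.05, adjusted p = 0.74). Of the T-leukaemia transcription factors, 5 of 17 tested members rose (29.4%), 7 fell (41.2%) and 5 were not called, with a median log2 fold change of -0.05. For all tested genes the shares were 35.5% higher and 35.2% lower. FLI1 (-0.93), TCF3 (-0.63) and ETS1 (-0.62) fell, and RUNX2 (0.80), GATA3 (0.55) and TOX (0.49) rose. ID3, an inhibitor of helix-loop-helix factors, was at 2.59, 2.32, 2 and 1.46 CPM in the 8 h libraries, against 2.23, 2.22, 2.25 and 2.81 CPM in the 4 h libraries. These low values overlapped (log2 fold change -0.18 ± 0.24, adjusted p = 0.52). EOMES, a T-box factor, had too few reads to test, with 8 counts summed over the 8 h libraries and 15 over the 4 h libraries.

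The nucleolar and ribosome biogenesis genes, which MYC is known to activate, fell more often than they rose. In that list, 9 of 51 tested members rose (17.6%), 33 fell (64.7%) and 9 were not called, with a median log2 fold change of -0.40. All tested genes had 35.5% higher and 35.2% lower. GNL3, the nucleolar GTPase nucleostemin, had 24.3, 22.9, 28.9 and 28.7 CPM in the 8 h libraries, against 61.9, 64.9, 65.7 and 64.1 CPM in the 4 h libraries. All 8 h libraries were low (log2 fold change -1.30 ± 0.07, adjusted p = 1.3e-14). MRTO4, which assembles the large ribosomal subunit, averaged 19.6 ± 1.42 CPM at 8 h and 45.8 ± 1.89 CPM at 4 h (-1.22), and NOP14, which processes the small-subunit RNA, 54.1 ± 5.07 CPM at 8 h and 121 ± 11.1 CPM at 4 h (-1.17). POLR1A, the large subunit of RNA polymerase I (-0.92), UBTF, its promoter factor (-0.83), and nucleolin, NCL (-0.75), fell as well, while WDR43 (0.70) and WDR74 (0.28) rose. In DMSO between the same hours 0 members rose and 34 fell, with a median of -0.16, so that falls numbered about the same without the compound. Over all genes in DMSO 15.9% rose and 14.8% fell. The change in SK-3-91 minus that in DMSO was positive in 14 and negative in 27 of the members, beside 35.6% and 33.0% of all genes. The genes of the ribosome itself rose more often than they fell. Of the cytosolic ribosomal proteins, 40 of 71 tested members rose (56.3%), 12 fell (16.9%) and 19 were not called, with a median log2 fold change of 0.18 (0.06 without scaling, where 27 rose and 21 fell). RPL37A (0.72), RPLP1 (0.64) and RPLP2 (0.64) were among the largest rises, and the largest falls, RPL7L1 (-0.99), RPS26 (-0.92) and RPL26L1 (-0.78), are uncertain because they share sequence with other genes.

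The promoters of these nucleolar genes can be read beside their change, because MYC and its partners bind the palindrome CACGTG, called the E-box. The search for it was chosen after the values were seen. It covered the 250 bases before the start of transcription in a gene's first entry in RefSeq (GRCh38.p14). An entry was held for 8020 of the 9715 genes tested. Other starts and the bases after the start were not searched, so an E-box there was not counted. Of 43 nucleolar genes with an entry, 3 held the 6 letters (6.98%), against 777 of the 8020 (9.69%), and the 3 were NAT10, UTP20 and UTP4. The E-box was in 8.79% of promoters of genes that rose at least 2-fold and in 12.2% of those of genes that fell at least 2-fold. The promoters of the pair that fell, both named after their values were seen, are given with the E-box in capitals, both on the plus strand and ending at the base before the start.
NAT10, chr11:34105379-34105628: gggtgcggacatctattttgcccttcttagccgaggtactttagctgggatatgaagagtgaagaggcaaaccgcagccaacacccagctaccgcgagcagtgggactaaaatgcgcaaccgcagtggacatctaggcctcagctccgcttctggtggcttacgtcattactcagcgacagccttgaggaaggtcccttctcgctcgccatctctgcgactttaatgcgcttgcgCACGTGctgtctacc
UTP20, chr12:101279855-101280104: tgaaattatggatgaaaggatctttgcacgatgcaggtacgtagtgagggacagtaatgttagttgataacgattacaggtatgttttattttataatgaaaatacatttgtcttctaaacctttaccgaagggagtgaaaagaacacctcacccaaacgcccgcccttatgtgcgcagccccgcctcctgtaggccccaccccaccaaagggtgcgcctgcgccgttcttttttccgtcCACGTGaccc
The first base of the E-box lies 15 bases before the start in NAT10, the enzyme that acetylates cytidines of ribosomal RNA (log2 fold change -0.98), and 10 bases before it in UTP20, a factor of small-subunit processing (-0.72). UTP4, the third carrier, rose (0.16). A match of letters is a description of the window and not of binding.

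Genes of DNA replication fell more often than they rose, and genes of mitosis rose more often than they fell. Of the DNA replication and G1/S genes, 15 of 65 tested members rose (23.1%), 38 fell (58.5%) and 12 were not called, with a median log2 fold change of -0.35, and 13 were at least 2-fold lower. Among all tested genes 35.5% rose, 35.2% fell and 4.67% were at least 2-fold lower. MCM6, a subunit of the replicative helicase, had 99.9, 108, 113 and 101 CPM in the 8 h libraries, against 347, 345, 320 and 338 CPM in the 4 h libraries. The groups were widely separated, 3.2-fold lower at 8 h (log2 fold change -1.68 ± 0.05, adjusted p = 4.4e-19). CDC6, which loads that helicase at origins, had 20.3, 17.9, 17.1 and 13.7 CPM in the 8 h libraries, against 52.3, 56.9, 65.4 and 55.7 CPM in the 4 h libraries, again with no overlap (log2 fold change -1.74 ± 0.09, adjusted p = 3.6e-15). PRIM1 of the polymerase that lays primers (-1.37), MCM4 (-1.30), MCM3 (-1.28), GINS2 (-1.20) and the uracil glycosylase UNG (-1.23) fell by at least 2-fold like RFC2. The cyclin gene CCNE1 (-0.45) and E2F1 (-0.68) fell by less, and E2F3 (0.60), the phosphatase CDC25A (0.54) and E2F7 (0.46) rose.

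Of the mitosis and G2/M genes, 34 of 63 tested members rose (54%), 21 fell (33.3%) and 8 were not called, with a median log2 fold change of 0.22 (0.10 without scaling, where 30 rose and 27 fell). On the TMM scale 35.5% of all tested genes were higher and 35.2% lower. KIF18A, a kinesin that aligns chromosomes, averaged 44.4 ± 4.85 CPM at 8 h and 17.7 ± 0.86 CPM at 4 h (1.33). KIF23 (1.21) and ANLN (0.99) of cytokinesis, TPX2 (0.88), which activates Aurora A, INCENP (0.88), the kinase PLK1 (0.89) and the anaphase activator CDC20 (0.86) rose beside AURKA. PRC1, which bundles the central spindle, rose most (742 ± 20.8 CPM at 8 h and 274 ± 8.49 CPM at 4 h; 1.44), but 54.9% of its 32-base words occur in other annotated genes, so its value is uncertain. The largest falls were in PKMYT1 (-1.60, also uncertain), an inhibitory kinase of CDK1, and in DLGAP5 (-1.16), HMMR (-1.12) and AURKB (-1.06). CDK1 rose by 0.56 and CCNB1 by 0.22, and CCNA2 fell by 0.17. Of the DNA damage response and repair genes, 9 of 52 tested members rose (17.3%), 30 fell (57.7%) and 13 were not called, with a median log2 fold change of -0.21. XRCC4 of end joining fell by 0.98, and FANCM rose by 0.82.

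**Figure D3:**
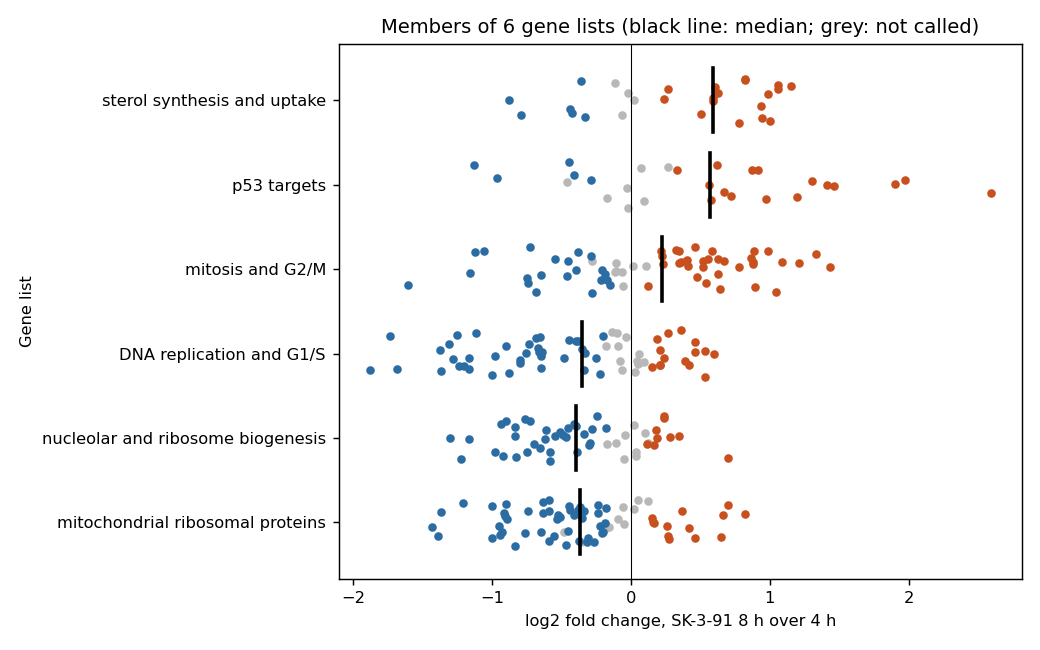
Log2 fold change, SK-3-91 8 h over 4 h, of each tested member of 6 gene lists, coloured where called and grey where not, with the list median as a black line. The medians run down the page as 0.59 for sterol genes, 0.57 for p53 targets, 0.22 for mitosis, -0.35 for replication, -0.40 for nucleolar genes and -0.36 for mitochondrial ribosomal proteins, and every list has members on both sides of 0.

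Genes of cholesterol synthesis and uptake rose more often than they fell. In the sterol list, 17 of 27 tested members rose (63%), 6 fell (22.2%) and 4 were not called, with a median log2 fold change of 0.59. Over all tested genes 35.5% rose and 35.2% fell. SC5D, an enzyme of the late steps of cholesterol synthesis, had 111, 108, 90.7 and 102 CPM in the 8 h libraries, against 46.4, 47, 50.6 and 54.2 CPM in the 4 h libraries. Every 8 h library was above every 4 h library (2.08-fold higher; log2 fold change 1.06 ± 0.07, adjusted p = 1.2e-13). MVD (1.00), MSMO1 (0.98), SCAP, the escort of the SREBP factors (0.94), INSIG1, which retains them (0.93), and HMGCS1 (0.82) rose too. PMVK (-0.79), FDPS (-0.44) and SREBF1 (-0.43) fell, and SREBF2 was not called (-0.07, adjusted p = 0.29). In DMSO 15 members rose and 0 fell, with a median of 0.15, beside 15.9% of all genes higher and 14.8% lower there. SK-3-91 minus DMSO was positive in 15 and negative in 7 of the members, beside 35.6% and 33.0% of all genes.

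Genes of energy supply did not move together, and their lists stand beside 35.5% of all tested genes higher and 35.2% lower. Of the mitochondrial ribosomal proteins, 13 of 69 tested members rose (18.8%), 46 fell (66.7%) and 10 were not called, with a median log2 fold change of -0.36. MRPL20 had 28.9, 26.8, 33 and 29.9 CPM in the 8 h libraries, against 81.4, 77, 73.6 and 76.8 CPM in the 4 h libraries. All 8 h libraries were low (log2 fold change -1.39 ± 0.07, adjusted p = 8.6e-16), and MRPL47 fell by 1.36 and MRPL13 by 0.95, while MRPL17 (0.82) and MRPL34 (0.70) rose. MRPL9 had the lowest value (-1.43) and is uncertain. Of the oxidative phosphorylation genes, 34 of 71 tested members rose (47.9%), 23 fell (32.4%) and 14 were not called, with a median log2 fold change of 0.11 (-0.01 without scaling, where 22 rose and 28 fell). The complex I genes NDUFA8 (21.2 ± 2.88 CPM at 8 h and 44 ± 4.08 CPM at 4 h; -1.07) and NDUFS1 (-0.90) and the complex II gene SDHA (-0.66) fell, and UQCR11 (0.50) and NDUFA3 (0.66) rose. Of the glycolysis and hypoxia genes, 14 of 39 tested members rose (35.9%), 9 fell (23.1%) and 16 were not called, with a median log2 fold change of 0.07 (-0.05 without scaling, where 6 rose and 12 fell). HK1, a hexokinase, fell (69.6 ± 3.51 CPM at 8 h and 139 ± 5.39 CPM at 4 h), as did PFKFB4 (-0.81) and the oxygen sensor EGLN3 (-1.52). EGLN3 was scarce, with a mean of 0.49 CPM at 8 h and 1.47 CPM at 4 h. HK2 (0.67), the lactate carrier SLC16A1 (0.60) and HIF1A (0.69) rose.

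DMSO libraries of the same hours show what changed without the compound. Over all genes DMSO at 8 h against 4 h had 1563 genes higher (15.9%) and 1456 lower (14.8%) of 9822 tested, and 32 changed at least 2-fold (0.326%), in a fit of all 24 libraries. The change in SK-3-91 minus that in DMSO differed from 0 in 6738 genes (68.6%), with 3493 positive (35.6%) and 3245 negative (33.0%). The glycolysis and hypoxia list had a median of 0.07 in SK-3-91 and 0.59 in DMSO, and the difference was positive in 6 and negative in 26 of its 39 tested members. LDHA is among the negative ones: its log2 fold change was -1.99 in SK-3-91 and 0.27 in DMSO, and SK-3-91 minus DMSO, in the fit of all libraries, was -2.23 ± 0.06 (SE; adjusted p = 1.2e-27). In the heat shock list, of which 7 members rose and 14 fell in SK-3-91, 15 members rose and 1 fell in DMSO, and in the T-lineage list, with 7 and 16 in SK-3-91, 14 members rose and 6 fell in DMSO. The immediate-early genes had a median of 0.44 in SK-3-91 and of 0.32 in DMSO. Of the 11 tested, 6 rose and 0 fell in SK-3-91, and 8 rose and 1 fell in DMSO. Their SK-3-91 minus DMSO difference was positive in 5 and negative in 3. The 2 times of SK-3-91 thus differ in hours of culture as well as in hours of compound, and for the 24 largest changes the difference from DMSO was called in each gene.

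**Figure D4:**
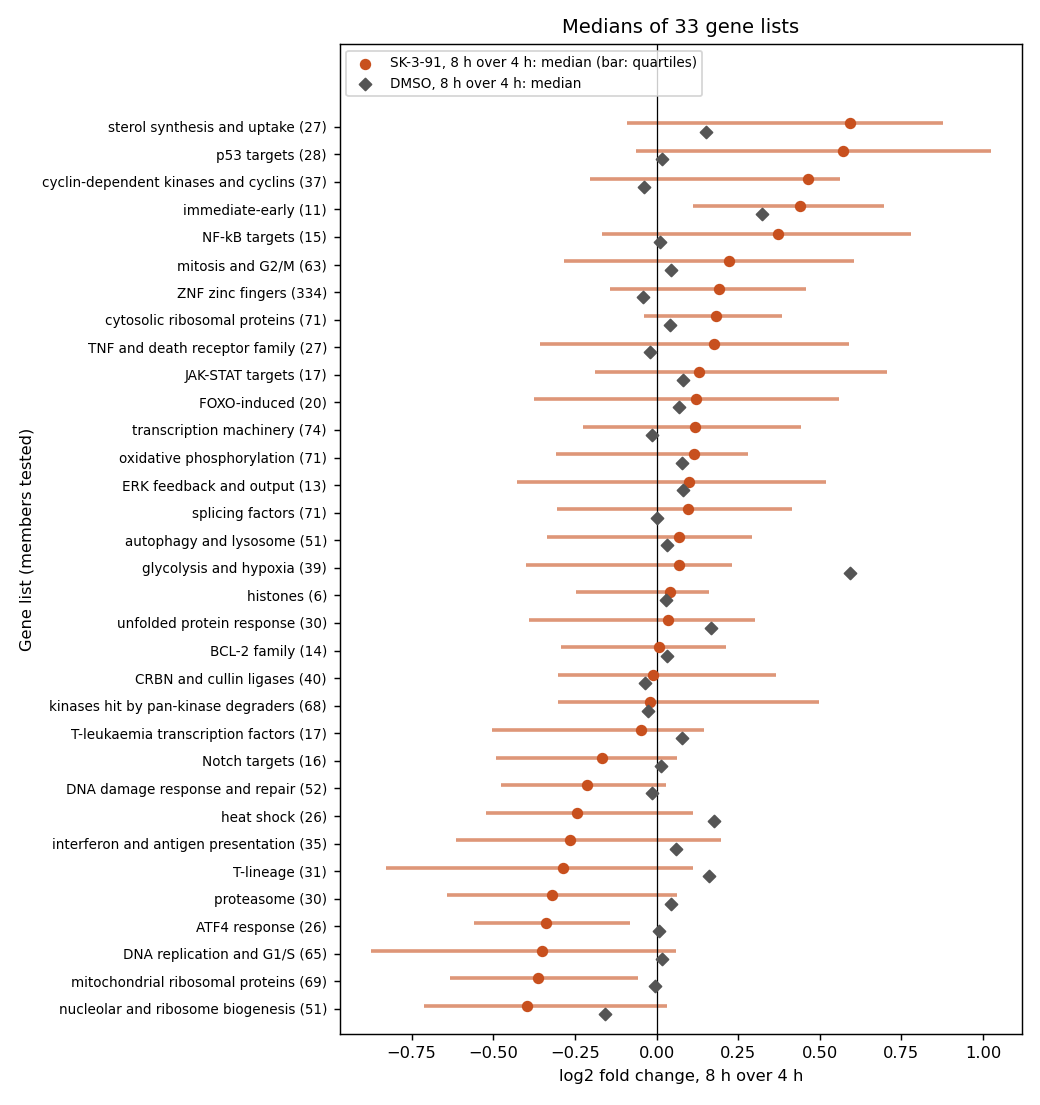
Median log2 fold change, 8 h over 4 h, of the 33 gene lists in SK-3-91 (circles, with bars from the lower to the upper quartile of members) and in DMSO (diamonds), with the number of tested members in brackets. The SK-3-91 medians run from 0.59 for sterol genes to -0.40 for nucleolar genes, and the DMSO median of the glycolysis and hypoxia list, at 0.59, stands apart from that of the other lists.

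ATF4, heat shock and proteasome genes fell more often than they rose, beside 35.5% of all tested genes higher and 35.2% lower. Of the ATF4 response genes, 3 of 26 tested members rose (11.5%), 16 fell (61.5%) and 7 were not called, with a median log2 fold change of -0.34. AARS1, the alanyl-tRNA synthetase, had 73.1, 76.8, 102 and 79.9 CPM in the 8 h libraries, against 197, 189, 193 and 193 CPM in the 4 h libraries. It was lower in every 8 h library (log2 fold change -1.23 ± 0.07, adjusted p = 1.5e-14), as were the amino-acid carrier SLC7A5 (100 ± 5.77 CPM at 8 h and 210 ± 15.1 CPM at 4 h; -1.07) and the mitochondrial enzyme PCK2 (-0.91), while CEBPG, a partner of ATF4, rose (214 ± 14.2 CPM at 8 h and 108 ± 7.17 CPM at 4 h; 0.99) and TRIB3 was not called (-0.18, adjusted p = 0.24). Of the heat shock genes, 7 of 26 tested members rose (26.9%), 14 fell (53.9%) and 5 were not called, with a median log2 fold change of -0.24. The cochaperone BAG3 rose (40.7 ± 1.16 CPM at 8 h and 16.9 ± 1.16 CPM at 4 h; 1.27) together with DNAJB4 (0.77) and HSPB1 (0.74), and FKBP4 (-0.98), PTGES3 (-0.93) and STIP1 (-0.79), which serve HSP90, fell, as did the mitochondrial chaperonin HSPD1 (-1.08, uncertain). Of the unfolded protein response genes, 10 of 30 tested members rose (33.3%), 12 fell (40%) and 8 were not called, with a median log2 fold change of 0.04 (-0.09 without scaling, where 6 rose and 14 fell). CALR, the lectin chaperone calreticulin, had 310, 315, 360 and 341 CPM in the 8 h libraries, against 871, 874, 897 and 857 CPM in the 4 h libraries. The groups were far apart (log2 fold change -1.40 ± 0.05, adjusted p = 3.6e-18). DNAJB11 (-0.96), MANF (-0.95) and CANX (-0.63) fell beside it, whereas DNAJC3 (0.95), SELENOS (0.85) and the sensor EIF2AK3 (0.67) rose. Of the proteasome genes, 7 of 30 tested members rose (23.3%), 17 fell (56.7%) and 6 were not called, with a median log2 fold change of -0.32. The ATPase subunit PSMC3 (93.1 ± 7.49 CPM at 8 h and 195 ± 6.13 CPM at 4 h; -1.07), the core subunit PSMA5 (-1.04) and the ubiquitin receptor PSMD4 (-0.95) fell, and PSMC2 (0.82) rose. Of the autophagy and lysosome genes, 22 of 51 tested members rose (43.1%), 16 fell (31.4%) and 13 were not called, with a median log2 fold change of 0.07 (-0.05 without scaling, where 15 rose and 19 fell). Cathepsin B, CTSB (0.85), and RB1CC1 (0.78) rose, and the galactosidase gene GLA (-0.89) and TFEB (-0.71), a regulator of lysosome genes, fell.

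T-cell identity and interferon genes fell more often than they rose, beside 35.5% of all tested genes higher and 35.2% lower. Of the T-lineage genes, 7 of 31 tested members rose (22.6%), 16 fell (51.6%) and 8 were not called, with a median log2 fold change of -0.29. CD1B, a lipid-presenting molecule of cortical thymocytes, had 115, 108, 125 and 112 CPM in the 8 h libraries, against 291, 305, 311 and 311 CPM in the 4 h libraries. Every 8 h library was below every 4 h library (2.65-fold lower; log2 fold change -1.41 ± 0.05, adjusted p = 8.6e-18). CD247, the zeta chain of the T-cell receptor (-0.93), ADA (-0.94), CD5 (-0.92), CD2 (-0.84), CD8A (-0.83), CD1E (-0.83) and the terminal transferase DNTT (-0.51) fell, while CD7 (0.45), THEMIS (0.40), CD28 (0.37) and CD3E (0.34) rose. PDCD1, the inhibitory receptor PD-1, was scarce at 1.18, 1.04, 0.616 and 0.364 CPM in the 8 h libraries, against 1.42, 1.6, 0.992 and 1.14 CPM in the 4 h libraries, and its groups overlapped (log2 fold change -0.65 ± 0.36, adjusted p = 0.11). The B-cell markers that were measured split, with CD79A higher (0.59) and IGLL1 (-1.01), BLK (-0.74) and VPREB1 (-0.57) lower, while MS4A1 and PAX5 were not analysed here. Summed over the 4 measured B-cell markers the level was 163 to 184 CPM at 8 h and 270 to 324 CPM at 4 h, and over the 16 T-cell leukaemia markers, of which 4 rose and 10 fell, 2996 to 3273 CPM at 8 h and 4199 to 4438 CPM at 4 h. The myeloid marker CD68 was at 0.54, a value that is uncertain and was not called without scaling. The endothelial marker PECAM1 was at -0.90 and the epithelial marker ESRP1, not called, at -0.32. The part of such markers in the results was not tested. Of the Notch targets, 4 of 16 tested members rose (25%), 7 fell (43.8%) and 5 were not called, with a median log2 fold change of -0.17. NOTCH1, the receptor that drives most T-cell leukaemias, had 245, 260, 239 and 251 CPM in the 8 h libraries, against 397, 369, 365 and 350 CPM in the 4 h libraries. It was lower at 8 h without overlap (log2 fold change -0.57 ± 0.05, adjusted p = 1.2e-10), and so were CR2 (-0.90), NOTCH3 (-0.74) and DTX1 (-0.56), but HES1 was not called (-0.09, adjusted p = 0.27) and TASP1 rose (0.96). Of the interferon and antigen presentation genes, 8 of 35 tested members rose (22.9%), 19 fell (54.3%) and 8 were not called, with a median log2 fold change of -0.27. PARP9 (-1.07), IFI35 (-1.05), NLRC5, which activates MHC class I genes (-1.05), OAS2 (-0.92) and MX1 (-0.69) fell, and IRF7 (0.78), the interferon-gamma receptor genes IFNGR1 (0.70) and IFNGR2 (0.54) and B2M (0.40) rose.

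The genes that changed most also differed in structure, by the annotation of GENCODE release 29 matched on symbols for 9652 of the genes tested. Genes that rose at least 2-fold had a median genomic span of 45.69 kb, those that fell at least 2-fold 21.91 kb, and all tested genes 34.32 kb. With genes split into quintiles of span, the share that fell at least 2-fold was 6.58% in the shortest and 6.22, 5.39, 3.37 and 1.86% in the quintiles after it, while the share that rose at least 2-fold was 1.92, 1.71, 2.64, 3.21 and 2.80%. The median GC content of the longest transcript was 44.72% in the genes that rose, 50.56% in those that fell and 47.58% in all tested genes, and the median gene width deposited with the counts was 4443, 2818 and 3918 bases. Decreases of 2-fold were thus denser among short genes, but the median log2 fold change of a quintile of span stayed between -0.04 and 0.03. The 2-fold sets, here and for the E-box, are those of the TMM scale alone. These are descriptions over genes with no test, and span, GC content and width go together along the genome.

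**Figure D5:**
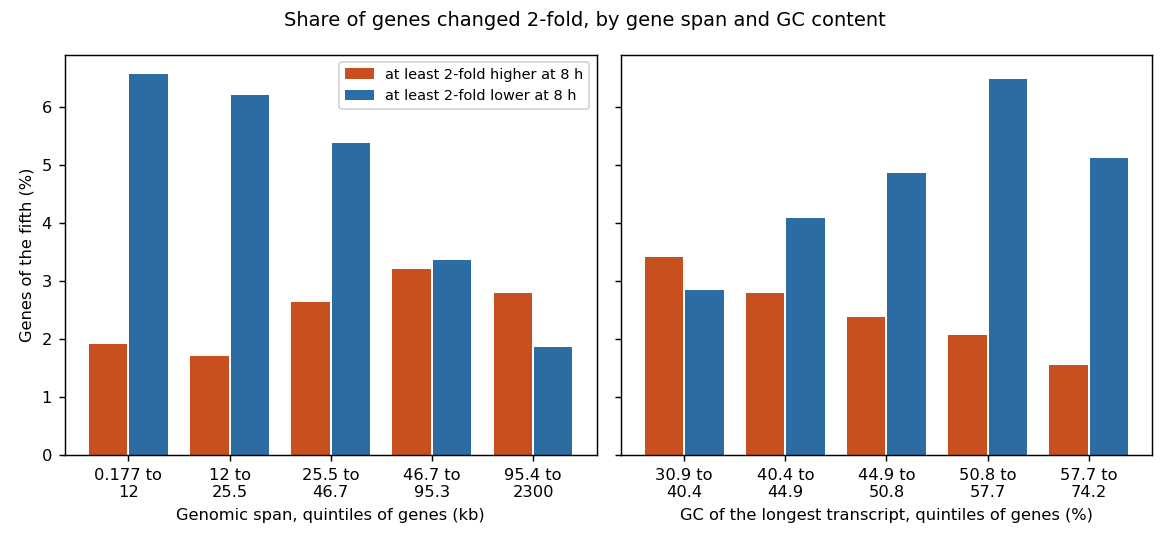
Percent of genes that rose (orange) or fell (blue) by at least 2-fold in SK-3-91 at 8 h against 4 h, by quintiles of genes ordered by genomic span in kb (left) and by GC content of the longest transcript in percent (right). The share lower drops with span to 1.86% in the longest quintile, and the share higher is largest in the quintile of lowest GC content, at 3.42%.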

How the data were processed

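RNA-seq of MOLT4 was deposited for 24 libraries; per the labels' protocols, total RNA was read from 1 end over 50 bases on the BGISEQ-500 platform. The authors' deposited table gives whole-number read counts per gene, not normalized, for 9822 genes (9818 with a symbol). The submitters' processing notes name edgeR and the build hg19. The sources used here name no aligner, counter, annotation or strand setting. A second deposited table, named for RPKM, turned out to hold log2 values whose powers of 2 are linear in the counts (largest gap 3.9e-07%), and entered 1 alternative only. The deposited gene width entered no test.

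The 8 SK-3-91 libraries of 8 h and 4 h were fitted alone in edgeR 4.0.16 (R 4.3.3): filterByExpr (which removed 107 genes), TMM factors, quasi-likelihood tests and adjustment by Benjamini and Hochberg over 9715 genes at 0.05, with a second test against a minimum fold of 1.5. TMM takes the bulk of genes as steady, so fold changes are relative to other genes and not per cell. The common biological coefficient of variation was 0.0544, at 0.0644 among 8 h and 0.0444 among 4 h libraries, and the first principal component held 79.5% of the variance. DMSO changes and their difference from SK-3-91 came from a fit of all 24 libraries. The scripts were tested on simulated counts. Alternatives used DESeq2 1.42.0, limma 3.58.1, other scalings, filters and thinned counts, and left out each library.

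The comparison, the 33 lists, the 6 marker lists and the naming rule were chosen with earlier results of these data known. The rule named the 12 largest increases and 12 largest decreases with no overlap between groups and a mean of at least 5 CPM in the higher group, up to 3 called members per list with at least 2 CPM, and fixed genes whatever their result. Some of these genes are not reported here, and all stay in every test and count. Further list members, given by their log2 fold change alone, were named after their values were seen. Genes sharing 20% or more of their 32-base words with other genes, or of their exon bases with exons on the opposite strand, are called uncertain (GENCODE 29, 9758 genes matched). That annotation and the promoters are on another build than hg19, and no coordinate was converted.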

Additional observations from a re-analysis of the deposited data

Results flagged for a closer look

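Values are CPM, and for each group of 4 libraries of the genes named by the rule and reported here, 218 groups in all, the highest or lowest library was checked for a gap to the others past Dixon's 95% limit. Chance alone would mark about 1 in 20 of such groups, and 12 were marked. At 8 h, replicate 1 stood apart in PHLDA3 (8.11, others 5.83 to 6.15) and NOP14 (46.6, others 55.6 to 57.2), and replicate 3 in MCL1 (326, others 366 to 371) and ZNF672 (3.23, others 2.19 to 2.23). Replicate 4 of 8 h stood apart in COQ9 (5.71, others 4.64 to 4.77), LCK (175, others 185 to 187), SF3B3 (200, others 187 to 189) and H2AZ1 (144, others 168 to 170). At 4 h, replicate 2 stood apart in BCL2 (11.3, others 13.9 to 14.3), replicate 3 in CCNK (304, others 245 to 253) and replicate 4 in PYGM (4.39, others 3.16 to 3.29) and ID3 (2.81, others 2.22 to 2.25).

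The change between 8 h and 4 h differed between SK-3-91 and DMSO in each of the largest changes named here, by a test of the difference in the fit of all 24 libraries (edgeR, adjusted p under 0.05). SK-3-91 minus DMSO, on the log2 scale, was 3.45 for TNFSF13B, 2.61 for SESN1, 2.26 for PYGM, 2.25 for PHLDA1, 2.02 for MTFR2, 1.88 for PHLDA3, 1.87 for TP53INP1, 1.80 for RPRD1A, 1.67 for RASL11A, 1.64 for MXD1, 1.53 for GNRH1 and 1.49 for FBXL2. It was -2.53 for SLC29A1, -2.30 for GYG1, -2.24 for NPTX2, -2.23 for LDHA, -1.98 for IKBKE, -1.96 for COQ9, -1.96 for TCEAL9, -1.93 for C7orf50, -1.90 for RFC2, -1.82 for NMI and -1.69 for TPRKB. These genes were chosen for a large change in SK-3-91, so the size of their difference from DMSO is partly set by that choice.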

How the results depend on the processing

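Across 18 alternatives, 112 of the 114 called named genes kept their direction and their call in each one that gave a value; MACROH2A1 lost its call without scaling factors and with limma-trend on the deposited log2 values, and H2AZ2 with these and with upper-quartile factors. The uncalled MYB was 0.00 with thinned counts and 0.01 without 8 h replicate 1 and with all 24 libraries in the fit, against -0.02, and was called at -0.14 without scaling and with limma; BCL2 ran over -0.06 to 0.22 with 1 library left out, below 0 without 8 h replicate 4, against 0.13. Genes at least 2-fold higher, 239 in the main analysis, were 158 with upper-quartile factors, 126 without scaling and 41 with limma, and those at least 2-fold lower, 454, numbered 700 without scaling and 130 with limma. Past the 1.5-fold minimum, 449 were higher without scaling and 212 with limma, against 725, and 464 were lower with limma, against 896; the cause was not tested. Upper-quartile factors gave 3002 higher and 3918 lower (43.38% higher) and limma 2752 and 4091 (40.22% higher). Leaving out 1 library at a time gave 3297 to 3488 genes higher, 3244 to 3436 lower, 220 to 295 at least 2-fold higher, 442 to 503 at least 2-fold lower, 647 to 803 and 812 to 918 past 1.5-fold in each direction, 2306 to 3267 for DMSO and 6536 to 6770 for the difference from DMSO, and a difference in total reads of -2.70 to -2.0 megareads, against -2.48, where 4 against 3 libraries cannot reach p under 0.05. Of 682 list medians recomputed, 580 moved by less than their spread and 102 by more. Without scaling, rises numbered 4 in place of 9 in the nucleolar list, 8 in place of 15 in the replication list, 4 in place of 9 in the repair list, 7 in place of 13 in the mitochondrial ribosome list and 1 in place of 3 in the ATF4 list, and falls 12 in place of 7 in the Notch list. A fit with the replicate number as a block gave 3397 higher and 3364 lower; same-numbered libraries did not vary together (correlation of deviations -0.09 to 0.01, and 0 of 4 best matched their own number). Depth limits the genes with few reads, and intervals cover counting error and the spread of these libraries only.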
